A study of Mus musculus and Homo sapiens with 22 samples.

Results

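Olig2 and 8 further genes of the neural lineage (Olig1, Sox1, Pax6, Neurog2, Neurod1, Nes, Sox3 and Pou3f2) were followed through the data, 9 of the 56196 genes in the count tables. Olig2 was picked on its rise in the Mettl3 KO libraries, so its difference between KO and WT is given here as a description and not tested. The other 8 were listed to see which neural genes moved with it. RNA-seq of poly(A)+ RNA was available for 3 wild-type (WT) libraries of mouse embryonic stem cells (mESCs) and 3 libraries of Mettl3 knockout (KO) mESCs, both grown with FBS and LIF and taken over from an earlier study. Mettl3 encodes the methyltransferase that places N6-methyladenosine (m6A) on mRNA. The 6 libraries were sequenced together on 1 flowcell. Lists of m6A sites predicted by m6Aboost from miCLIP2, an antibody crosslinking method with single-nucleotide resolution, were used for WT mESCs, for purchased mouse heart RNA (1 µg input) and for HEK293T, a human embryonic kidney line. How the KO allele was made, and whether each genotype stands for 1 clone, is not given in the sources used here, and p-values therefore measure only the spread between these libraries.

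The libraries held between 22746733 and 27254245 reads assigned to genes. Mettl3 itself had 560, 698 and 612 reads in WT and 462, 669 and 457 in KO (log2 fold change −0.50, SE 0.14, adjusted p 0.0134 in edgeR, 0.00281 with the replicate number as a block and 0.00418 in DESeq2). A count over the whole gene does not test for the loss of part of it. The pluripotency genes Pou5f1, Nanog and Sox2 had at least 7349 reads in every library, and none of the 3 was called at an adjusted p of 0.01, while of a wider list of 19 pluripotency genes 3 were higher and 6 lower. Beyond Mettl3, the WT and KO libraries differed in whole chromosomes. Kdm5d on the Y chromosome had 0 reads in each WT library and 774, 850 and 802 in KO. Chromosome 8 was lower in KO, its 829 tested genes lying at a median of −0.44 on the log2 scale, against −0.02 for all 15731 genes tested. Effects of the Mettl3 deletion and other differences between the cell lines cannot be told apart in any of the comparisons below.

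As background, Olig2 and Olig1 are neighbouring basic helix-loop-helix (bHLH) transcription factor genes best known from the oligodendrocyte lineage, and Olig2 also specifies motor neuron progenitors in the ventral spinal cord, where it is induced by Hedgehog signals. Sox1 and Sox3 encode HMG-box factors of the early neural plate, Pax6 a paired and homeodomain factor of neural and eye progenitors, and Nes the intermediate filament protein nestin of neural stem cells. Neurog2 and Neurod1 are proneural bHLH factors of neuron formation, and Pou3f2 (Brn2) is a POU factor of neural progenitors and neurons. Undifferentiated mESCs normally keep most of these genes low.

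Olig2 (chromosome 16, 91225457 to 91228677, plus strand, GRCm38; 2 exons) had 0, 1 and 0 reads in WT and 236, 304 and 232 in KO. The groups did not overlap, and no WT library held more than the single read. Scaled to library size, KO held 9.41 ± 0.85 CPM (counts scaled to a library size of 1000000; SD, n = 3). The ratio of KO to WT was 647, with an exact 95% interval of 116 to 25601. That interval covers only the counting error of the pooled reads. It takes no account of the spread between libraries or of Olig2 being picked for this rise. With WT set at a floor of 3 reads per library, more than any WT library held, KO would be 71.0-fold above WT, which is a lower bound of the fold. Olig2 was 1 of 8 genes, 0.0509% of those tested, with at most 3 reads in every WT library and at least 100 in every KO library. Kdm5d, Ddx3y, Eif2s3y and Uty, which lie on the Y chromosome, Eno1b, Lnp1 and the pseudogene Atp6v0c-ps2 were the others.

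Olig1 (chromosome 16, 91269772 to 91271933, plus strand; 1 exon) starts 44.3 kb downstream of the Olig2 start. It had 2, 2 and 4 reads in WT and 267, 260 and 293 in KO, again with a wide gap between the groups. Its KO level was 10.1 ± 1.13 CPM (SD, n = 3), the ratio to WT was 85.9 with an exact 95% counting interval of 43.4 to 199.8, and the rise was called in edgeR (log2 fold change 6.37, SE 0.33, adjusted p 1.48e-06). In the 3 KO libraries Olig1 stood at 1.32, 1.00 and 1.48 times the level of Olig2 per length, so that both genes were present in similar amounts. An antisense gene, Gm15966, overlaps the 3′ end of Olig1. Reads were counted by strand.

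Pou3f2 (chromosome 4, 22482780 to 22488366, minus strand; 1 exon) had 10, 3 and 5 reads in WT and 92, 58 and 75 in KO. Its lowest KO library stood well above its highest WT library. Pou3f2 rose by 3.37 on the log2 scale (SE 0.46, adjusted p 0.000281 in edgeR), to 2.80 ± 0.85 CPM in KO (SD, n = 3). Olig2, Olig1 and Pou3f2 entered the fit only through their KO reads, since none of the 3 passed the low-count filter in all WT libraries. Entry in this way favours genes that are higher in KO, though it does not force a call.

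Because Olig2 and Pou3f2 rose in the same libraries, their promoters are shown, with each CG dinucleotide in capitals. The RefSeq promoter table for GRCm38.p6 held 7 of the 9 members. The stretch of Olig2 is 157 bases directly upstream of the annotated start (chr16:91225300-91225456, plus strand) and that of Pou3f2 is 250 bases (chr4:22488367-22488616, minus strand).
Olig2: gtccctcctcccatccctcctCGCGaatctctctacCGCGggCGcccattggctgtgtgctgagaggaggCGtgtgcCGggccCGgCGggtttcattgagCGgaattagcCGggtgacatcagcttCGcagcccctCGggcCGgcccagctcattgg
Pou3f2: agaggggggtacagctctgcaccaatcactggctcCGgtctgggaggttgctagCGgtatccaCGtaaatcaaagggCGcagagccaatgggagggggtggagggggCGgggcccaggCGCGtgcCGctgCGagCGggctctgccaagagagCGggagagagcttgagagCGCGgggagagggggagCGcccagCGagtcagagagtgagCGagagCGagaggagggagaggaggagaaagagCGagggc
The 250 bases before the RefSeq start held 22 CG dinucleotides for Olig2 and 18 for Pou3f2, against a median of 6 over 32851 promoters. For Olig2 the RefSeq start (91225550) lies inside the GENCODE transcript, which starts at 91225457. The 157 bases shown, which end before the GENCODE start, held 14. Members that were not called higher or not tested held 29 (Sox1), 22 (Neurod1), 15 (Nes and both starts listed for Pax6) and 8 (Neurog2). Only 26 of these bases for Sox1 and 135 for Neurod1 lie before the GENCODE start, and they held 1 and 6. The counts over 250 bases thus do not cover the same kind of region in every gene. Neither Olig2 nor Pou3f2 held the E-box CANNTG in the 250 bases (searched in these letters, which read the same on the other strand). Of all promoters 66.2% held it. The octamer ATGCAAAT, searched on both strands, was found in neither and in 1.60% of all promoters.

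**Figure D1:**
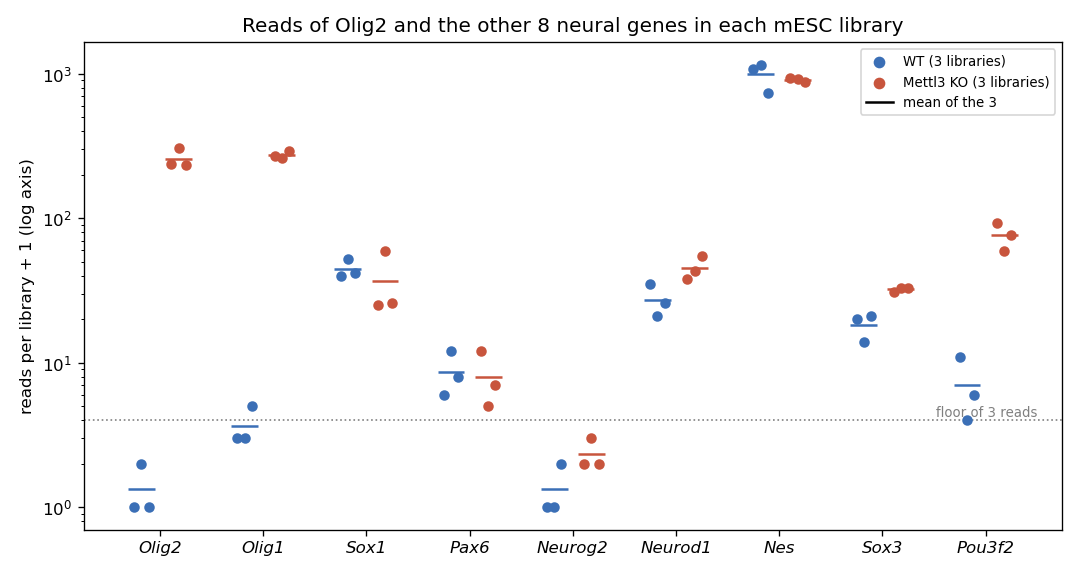
Reads per library plus 1 (log axis) for the 9 members in the 3 WT and 3 Mettl3 KO libraries, with points for libraries and lines for means. Olig2, Olig1 and Pou3f2 are higher in all 3 KO libraries, Sox3 and Neurod1 are separated by narrow gaps, and the other 4 overlap.

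Nes (chromosome 3, 87971078 to 87980451, plus strand; 4 exons) was the one member with a substantial level in WT. It had 1083, 1156 and 737 reads in WT and 926, 919 and 871 in KO, so that all KO read counts fell inside the WT range. In CPM, KO replicates 2 and 3 (at most 32.2) lay below the lowest WT library (34.8). The CPM values were 43.3 ± 8.17 for WT and 33.4 ± 3.09 for KO (SD, n = 3), and the difference was not called (log2 fold change −0.38, SE 0.15, adjusted p 0.0579 in edgeR). Leaving out WT replicate 3, the lowest of the 3, gave −0.51 and an adjusted p of 0.00600 in edgeR.

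The early neural plate factors gave no call. Sox1 (chromosome 8, 12395295 to 12400126, plus strand) had 39, 51 and 41 reads in WT and 24, 58 and 25 in KO, with KO replicate 2 above all WT libraries and the other two below them. Its log2 fold change was −0.57 (SE 0.33, adjusted p 0.188 in edgeR), beside the −0.44 at which its chromosome centred. Sox3 (chromosome X, 60891366 to 60893430, minus strand) had 19, 13 and 20 reads in WT and 30, 32 and 32 in KO. Its groups did not overlap, but its log2 fold change of 0.58 (SE 0.32, adjusted p 0.168 in edgeR) did not pass. Groups without overlap were common, at 56.1% of all genes tested.

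Of the proneural factors, Neurod1 (chromosome 2, 79452521 to 79456751, minus strand) had 34, 20 and 25 reads in WT and 37, 42 and 54 in KO. These did not overlap in reads but did in CPM. Its log2 fold change was 0.47 (SE 0.33, adjusted p 0.265 in edgeR). Neurog2 (chromosome 3, 127633135 to 127635631, plus strand) had 0, 0 and 1 reads in WT and 1, 2 and 1 in KO. Pax6 (chromosome 2, 105668900 to 105697364, plus strand) had 5, 11 and 7 reads in WT and 11, 4 and 6 in KO. Both lay below the low-count filter and were not tested, and a difference was not detectable at this depth.

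In all, 7 of the 9 members could be tested. Of the 6 other than Olig2, 2 were called and both were higher in KO, while 29.7% of all genes tested were called in either direction and 17.1% were called higher. These 2 calls are the genes that passed the filter only through KO. Of Sox1, Sox3, Neurod1 and Nes, which had reads in every library of both genotypes, 0 were called at an adjusted p of 0.01 in edgeR and 0 in DESeq2, and 1 (Nes) had an unadjusted p under 0.05 in each tool.

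Levels between genes were compared per length, as CPM divided by the exon length in kilobases (RPKM). In WT the order was Nes (6.75 ± 1.27, SD, n = 3), Neurod1 (0.433 ± 0.155), Sox1 (0.395 ± 0.0118), Sox3 (0.377 ± 0.12), Olig1 (0.0554 ± 0.0280), Pou3f2 (0.0491 ± 0.0326), Pax6 (0.0281 ± 0.00782), Neurog2 (0.00707 ± 0.0123) and Olig2 (0.00502 ± 0.00869). Only 2 steps in this order had ranges that did not overlap, that from Nes to Neurod1 and that from Sox3 to Olig1. In KO, Olig1 (4.66 ± 0.52 RPKM) and Olig2 (3.72 ± 0.33 RPKM) stood next after Nes (5.20 ± 0.48 RPKM). The ranges of Nes and Olig1 overlapped, those of Olig1 and Olig2 did not, and Neurod1 (0.597 ± 0.117 RPKM) followed far below. Sox3 (0.558 ± 0.0303 RPKM), Pou3f2 (0.501 ± 0.153 RPKM) and Sox1 (0.265 ± 0.122 RPKM) came next, each overlapping its neighbour. Pax6 (0.0226 ± 0.0133 RPKM) and Neurog2 (0.0216 ± 0.00758 RPKM) stayed last. For scale, Sox2, a factor shared by pluripotent and neural stem cells, had 180 ± 10.3 RPKM in WT. The KO level of Olig2 exceeded that of 49.3% of all genes tested, and its WT level that of 0.229%.

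Of the 24 annotated genes with a start within 250 kb of the Olig2 start, 7 had at least 10 reads in some library. Upstream, Synj1 (214 kb away; 741, 850 and 630 reads in WT, 755, 1156 and 787 in KO) and Paxbp1 (181 kb away; 1806, 2742 and 1548 in WT, 2060, 2402 and 2463 in KO) overlapped between the groups. Their log2 fold changes of 0.02 (SE 0.14) and −0.05 (SE 0.13) were not called, and their signs turned in some alternatives. Downstream of Olig1, the interferon receptor gene Ifnar2 had 109, 166 and 71 reads in WT and 182, 255 and 167 in KO (log2 fold change 0.57, SE 0.25, adjusted p 0.0906 in edgeR). Il10rb, an interleukin receptor gene 181 kb from Olig2, had 37, 53 and 27 reads in WT and 76, 147 and 100 in KO. It rose by 1.21 (SE 0.28, adjusted p 0.00612 in edgeR), a call that was lost when WT replicate 1 (adjusted p 0.0228) or 3 (0.0123), or KO replicate 2 (0.0282) or 3 (0.0175), was left out. The noncoding A930006K02Rik had 3, 3 and 5 reads in WT and 10, 4 and 10 in KO and was not tested. The lowest KO library stood 64.7-fold above the floor of 3 reads for Olig2 and 46.4-fold above the highest WT library for Olig1, while the fitted rise of Il10rb was 2.31-fold. The 463 tested genes of chromosome 16 centred on a log2 fold change of 0.02.

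**Figure D2:**
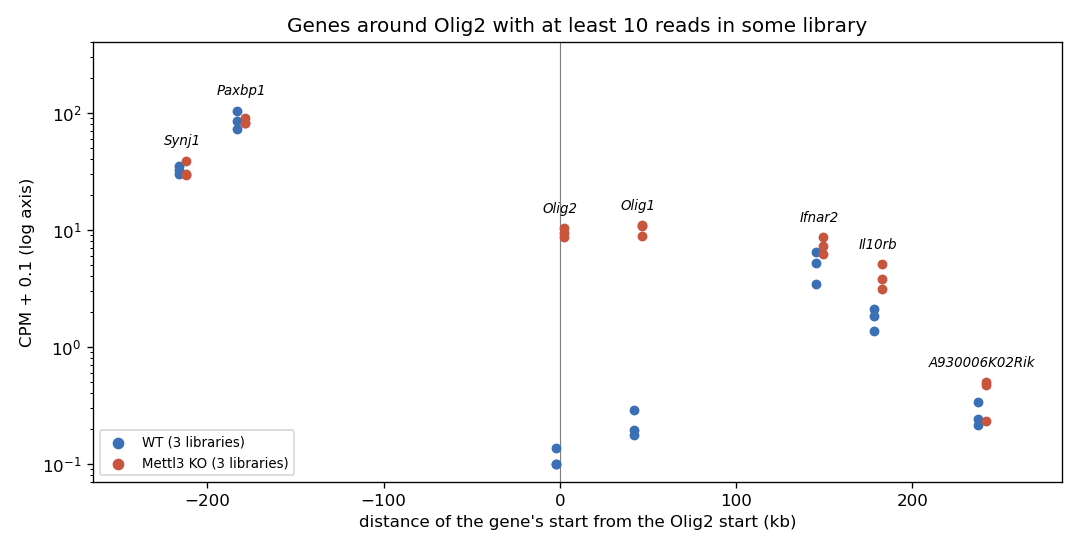
CPM plus 0.1 (log axis) of the 7 genes with at least 10 reads in some library, by distance of their start from that of Olig2, in 3 WT and 3 KO libraries (points). Olig2 and Olig1 go from the bottom of the plot in WT to about 10 CPM in KO, while Synj1 and Paxbp1 overlap.

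The genes nearest to Olig2 in Euclidean distance over the 6 log2 CPM values were Atp6v0c-ps2 (0.83), Lnp1 (1.87), Olig1 (2.17), Gm2792 (2.36) and Gm6969 (2.68). Atp6v0c-ps2 had 1, 1 and 0 reads in WT and 295, 390 and 215 in KO, and Lnp1, also on chromosome 16, had 0 in each WT library and 134, 127 and 116 in KO. Atp6v0c-ps2, Gm2792 and Gm6969 are annotated as pseudogenes, whose reads can be shared with near-identical copies, so their counts are uncertain. Olig1 was the only one of these 5 that is in the neural lists or a member.

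To see how far a wider neural programme moved, 148 genes in 7 lists were read from the same fit. Of these, 107 were tested, 31 were called higher in KO (29.0%, against 17.1% of all genes tested), 7 were called lower (6.54%, against 12.6%) and 69 were not called. With the replicate number as a block, 40 were higher and 15 lower, in a fit that called 23.5% of all genes higher and 20.0% lower. The median log2 fold change of the tested list genes was 0.32, against −0.02 over all genes. Of the 31 called higher, 9 had passed the filter only through KO. Among the 90 list genes with all WT libraries over the filter, 22 were called higher (24.4%, against 15.2% of all such genes) and 7 lower (7.78%, against 14.0%). The lists were drawn up with results of these data known, so these shares are descriptions. Tcf3, Ptch1, Rest and the genes named below as near the floor were picked after their values were seen.

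The oligodendrocyte lineage list, which leaves out the 2 Olig genes, had 14 tested genes with a median of 0.53. Of these, 3 were higher (21.4%, against 17.1% of all genes tested), 0 lower (against 12.6%) and 11 not called. All 3 had passed the filter only through KO, which favours genes higher in KO, so the count is no support for a rise of the list. At an unadjusted p under 0.05 edgeR had 2 lower, and DESeq2 called 1. Sox9, a glial fate factor, had 9, 12 and 3 reads in WT and 107, 84 and 84 in KO (log2 fold change 3.27, SE 0.39, adjusted p 0.000130 in edgeR). Cspg4, the NG2 proteoglycan of oligodendrocyte precursors, had 6, 7 and 6 reads in WT and 36, 77 and 26 in KO (2.57, SE 0.45, adjusted p 0.00123 in edgeR). Sox10, which works beside Olig2 in this lineage, was the third call, with 15, 15 and 5 reads in WT and 41, 33 and 46 in KO (1.53, SE 0.39, adjusted p 0.00929 in edgeR). It was no longer called without any one of the 6 libraries, with adjusted p from 0.0122 to 0.0356. Genes of later stages were at or near the floor: Mog had at most 5 reads in any library and Enpp6 at most 1.

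In the list of early neural and neural progenitor genes, 4 of 23 tested genes were higher and 2 lower (median 0.21). These shares were 17.4% and 8.70%, against 17.1% and 12.6% of all genes tested. The share called higher was thus near that of all genes. Zfp521, a zinc finger factor that promotes neural conversion of mESCs, had 54, 41 and 38 reads in WT and 530, 659 and 494 in KO (log2 fold change 3.39, SE 0.21, adjusted p 4.13e-06 in edgeR). Meis2, a homeodomain cofactor, rose by 1.63 (SE 0.29). In the other direction, Vim, an intermediate filament gene that is often expressed together with Nes, fell by 2.52 (SE 0.19, adjusted p 1.20e-05 in edgeR), from 2437, 2333 and 2871 reads in WT to 486, 472 and 652 in KO. Otx2, a forebrain and primed-pluripotency factor, fell by 1.05 (SE 0.27, adjusted p 0.00967 in edgeR). Its adjusted p was above 0.01 without any one WT library (0.0239, 0.0257 and 0.0104 for replicates 1 to 3) and without KO replicate 2 (0.0400) or 3 (0.0365), with library size as the only scaling (0.0181) and with at least 10 counts required in every library (0.0128).

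The proneural and neuronal bHLH list, which also holds zinc finger factors, had 8 tested genes with a median of 1.76. Of these, 6 were higher (75%, against 17.1% of all genes tested) and 0 lower (against 12.6%). No gene of this list was lower in edgeR at an unadjusted p under 0.05 or in DESeq2. Of the 6 called, 4 had passed the filter only through KO, Neurog1 and Atoh1 among them. Entry in this way favours genes higher in KO, so these 4 calls are no support for a rise of the list. Neurog1, a sensory proneural factor, had 7, 11 and 3 reads in WT and 87, 101 and 49 in KO (log2 fold change 3.23, SE 0.42, adjusted p 0.000239 in edgeR). Atoh1, a proneural factor of hindbrain and inner ear, had 3, 1 and 2 reads in WT and 19, 22 and 27 in KO, a ratio of 9.50 with an exact 95% counting interval of 4.15 to 26.8. Other members of the list stayed at the bottom, with 0 reads of Neurod2, Neurod6 and Bhlhe23 in every library. The widely expressed bHLH partners Tcf12 and Tcf4 rose by 1.00 (SE 0.10) and 0.44 (SE 0.11), the latter with no call without any one library but WT replicate 3 (adjusted p up to 0.0349). Tcf3, another partner, had a log2 fold change of −0.05 (SE 0.11).

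The Hedgehog pathway, which acts upstream of Olig2 in the ventral neural tube, had 7 of 16 tested genes higher and 1 lower (median 0.36). These shares were 43.8% and 6.25%, against 17.1% and 12.6% of all genes tested. The targets and modulators Ptch1 (3558, 4000 and 2599 reads in WT, 6651, 8645 and 6506 in KO; log2 fold change 0.85, SE 0.14) and Gli1 (603, 1032 and 664 in WT, 1366, 1908 and 1360 in KO; 0.77, SE 0.15) were both called, Gli1 not without WT replicate 1 (adjusted p 0.0117). Hhip, which binds Hedgehog ligands, had 33, 13 and 56 reads in WT and 167, 287 and 160 in KO (2.27, SE 0.45, adjusted p 0.00260 in edgeR). That call was lost without WT replicate 1 (adjusted p 0.0147) or KO replicate 2 (0.0120). Foxa2, a floor plate and endoderm factor that passed the filter only through KO, had 1, 1 and 2 reads in WT and 36, 18 and 30 in KO, a ratio of 17.6 with an exact 95% counting interval of 6.63 to 66.1. Smo, the signal transducer, fell by 0.82 (SE 0.16, adjusted p 0.00212 in edgeR), and not past 0.01 without KO replicate 1 (0.0144) or KO replicate 3 (0.0119). Ligand genes stayed low, with at most 6 reads of Shh and at most 6 of Ihh in any library. The ventral factors Nkx2-2 and Nkx6-1 had at most 4 and 6 reads. Nkx6-2, by contrast, had 35, 59 and 65 reads in WT and 35, 36 and 30 in KO. Its CPM was lower in KO without overlap, but it was not called (log2 fold change −0.91, SE 0.30, adjusted p 0.0297 in edgeR).

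In the Notch list, which includes inhibitors of neural genes, 4 of 19 tested genes were higher and 1 lower (median 0.18). These shares were 21.1% and 5.26%, against 17.1% and 12.6% of all genes tested. The receptor Notch2 (1.74, SE 0.13 on the log2 scale) and Id2 (1.53, SE 0.14), an inhibitor of bHLH factors, rose, as did the nuclear effector Rbpj (0.84, SE 0.11), and the ligand Dll1 fell by 1.64 (SE 0.30). Rest, a repressor of neuronal genes, had a log2 fold change of 0.46 (SE 0.17, adjusted p 0.0457 in edgeR). It was called with the replicate block (0.00193), without a low-count filter (0.000729) and with library size as the only scaling (0.00634). Neuronal genes gave 4 of 19 higher (21.1%, against 17.1% of all genes tested) and 0 lower (against 12.6%), with a median of 0.25. At an unadjusted p under 0.05 edgeR had 4 lower, and DESeq2 called 1 lower. Map2, a microtubule protein of dendrites, rose by 1.59 (SE 0.28), and Slc32a1, the vesicular GABA transporter, by 1.42 (SE 0.35, adjusted p 0.00852 in edgeR). Mapt, the tau gene, rose by 0.79 (SE 0.15) and Gad1, which makes GABA, by 0.83 (SE 0.15), the latter not without KO replicate 1 (adjusted p 0.0115). Slc32a1 had passed the filter only through KO, and its call was lost without any one of the libraries but WT replicate 2 (adjusted p up to 0.0368) and with library size as the only scaling (0.0117). Of the astrocyte and radial glia list, 3 of 8 tested genes were higher and 3 lower (median −0.59). Each share was 37.5%, against 17.1% higher and 12.6% lower among all genes tested. Glul (0.75, SE 0.09) and Gja1 (0.70, SE 0.17) rose, and Aldh1l1 (−2.35, SE 0.18) and Nfib (−1.03, SE 0.14) fell. Gja1 was not called when WT replicate 1 (adjusted p 0.0383) or 2 (0.0231), or KO replicate 1 (0.0298) or 3 (0.0293), was left out. Gfap, the classic astrocyte marker, had at most 5 reads in any library.

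**Figure D3:**
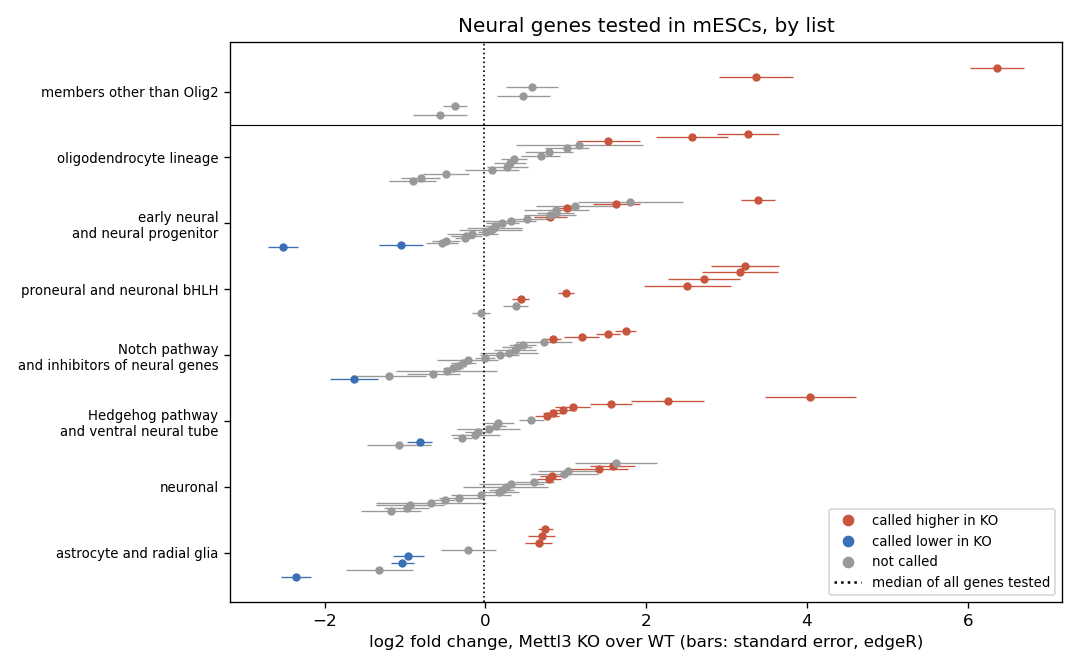
Log2 fold change of KO over WT with its standard error for each tested gene of the 7 neural lists and for the 6 tested members other than Olig2 (top row), coloured by call. In the bHLH list 6 of 8 genes lie right of the median of all genes (dotted line) with a call. Of these 6, 4 had passed the filter only through KO, which favours genes higher in KO. The other lists hold calls on both sides or mostly no call.

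Genes of other lineages were counted in the same way, 73 genes in 6 lists, because they mark other cells that a culture of mESCs can hold. Of the 45 tested, 11 were higher and 8 lower, beside 17.1% higher and 12.6% lower among all genes tested. Neural crest genes had 4 of 8 higher (50%, against 17.1% of all genes tested) and 0 lower. Among them Ets1 rose by 2.41 (SE 0.29), Snai2 by 1.86 (SE 0.48), Msx2 by 1.49 (SE 0.28) and Snai1 by 1.41 (SE 0.29). Dab2, an endoderm gene, went from 22, 26 and 23 reads in WT to 1011, 1058 and 750 in KO, whereas Gata4 of the same list fell by 1.59 (SE 0.31). The trophoblast gene Gata3 rose by 3.40 (SE 0.34) and the mesoderm gene Mesp2 by 1.14 (SE 0.25). Of the 19 pluripotency genes 3 were higher (15.8%, against 17.1% of all genes tested) and 6 lower (31.6%, against 12.6%), and their summed level lay between 6136 and 6753 CPM in WT and between 4962 and 5181 CPM in KO, without overlap. Klf2 (1.61, SE 0.12) and Gdf3 (1.23, SE 0.22) rose most among the calls, and Tdgf1 (−1.98, SE 0.18) and Dppa5a (−1.68, SE 0.14) fell most. Fibroblast genes, which would mark feeder cells, summed to between 9.45 and 13.3 CPM in WT and between 10.6 and 11.9 CPM in KO. Thy1 of that list rose by 1.19 (SE 0.23) and Pdgfrb fell by 0.88 (SE 0.20), with Lum at most at 1 read and Fap at 0. In bulk RNA a few cells with many Olig2 transcripts and many cells with few cannot be told apart, and the part of other cell types, or of the pluripotency genes, in the rise of Olig2 was not tested. Snai2 had passed the filter only through KO. The call of Msx2 was lost without KO replicate 1 (adjusted p 0.0113) and that of Snai1 without any KO library (up to 0.0151). The call of Snai2 was lost without WT replicate 2 (adjusted p 0.0275), WT replicate 3 (0.0212) or any KO library (up to 0.0288), that of Mesp2 without WT replicate 2 or any KO library (up to 0.0192), that of Gata4 without WT replicate 1, KO replicate 1 or KO replicate 3 (up to 0.0135), and that of Pdgfrb without WT replicate 1 or any KO library (up to 0.0257) and with library size as the only scaling (0.0164).

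The m6A sites listed for WT mESCs were searched for the members' mRNAs, since Mettl3 places this mark. Of the 25456 listed sites, 5 lay in exons of a member and all 5 were in Nes. They are printed with 10 bases on each side, in lower case with the pentamer around the methylated A in capitals (GRCm38, chromosome 3, plus strand, all in coding sequence). The score after each position in the next sentence is the m6Aboost prediction score, and the 5 pentamers all match DRACH (D is A, G or T, R is A or G, H is A, C or T).
Nes 87971328: agcttgggGGACTccgggcgc
Nes 87976856: tgcttgagAGACTggtagaaa
Nes 87977957: agagtcaaGAACTgagatctc
Nes 87978016: ggggtggaGGACAgtcagcag
Nes 87979299: ggacctagGGACTgaggcctc
The scores were 0.679 at position 87971328 in exon 1, and 0.709 at 87976856, 0.855 at 87977957, 0.662 at 87978016 and 0.794 at 87979299 in exon 4, against a median of 0.745 over the list. The list gives 1 score per site for all replicates, so no error can be given. Nes had 0.779 sites per kb of exon, against a median of 0.60 over tested genes with a site. In mouse heart RNA, Nes held 14 sites, 13 of them in coding sequence and 1 in the 3′ UTR, and 3 of the mESC positions (87976856, 87977957 and 87978016) were among them. None of the other 8 members had a heart site.

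The remaining 8 members had 0 listed sites in WT mESCs although their main coding transcripts held between 24 DRACH motifs (Sox3) and 107 (Pou3f2), with 33 in Olig2 and 28 in Olig1. The share of genes with a listed site rose with their level. All tested members but Nes belonged to the lowest of 4 equal bins of genes by WT level per length, in which 1.58% of genes had a site, against 66.1% in the third bin, which holds Nes, and 74.3% in the highest. For Olig2, with a total of 1 read in WT, a site was not detectable at this depth. A list for KO mESCs was not analysed here. Among the 107 tested genes of the 7 neural lists, 34 had a site (31.8%, against 42.0% of all genes tested).

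In HEK293T, OLIG2 held 7 sites and POU3F2 held 12, and the other 7 human members held 0. The OLIG2 sites are shown beside the mouse bases to which they align (human GRCh38 chromosome 21, mouse GRCm38 chromosome 16, both plus strand), because the mESC list holds no mouse site there. Capitals mark the pentamer around the methylated A in human and the aligned bases in mouse.
human OLIG2 33026867: ggggccatGGACTcggacgcc
mouse Olig2 91226404: ggggccatGGACTcggacgcc
human OLIG2 33026999: accccgagTGACTgcccgccg
mouse Olig2 91226536: acgccgagCGACTgcccgcca
human OLIG2 33027894: ggaagcgaGGACTggcctgcg
mouse Olig2 91227424: agcagcgcGGACAggccagcg
human OLIG2 33027942: ggggcgcaGGACCatggactg
mouse Olig2 91227473: ggggagctGGACCacgggctg
human OLIG2 33027949: aggaccatGGACTgggggtgg
mouse Olig2 91227480: tggaccacGGGCTgggcctag
human OLIG2 33028136: cctcactaGAACTcatccgac
mouse Olig2 91227661: catccctgGAACTtcctgcct
human OLIG2 33028181: gattctaaAAACTtctttccc
mouse Olig2 91227693: aagtctaaAAACTaactttcc
The first 2 sites lie in the coding sequence, the first just after the start codon, and the other 5 in the 3′ UTR between 60 and 347 nt after the stop codon. Scores ran from 0.671 to 0.836, with the highest at 33027949, against a median of 0.715 over the HEK293T list. Of the 7 pentamers, all of which match DRACH in human, 5 align to DRACH in mouse. The windows of these 5 differed from mouse at 0 (33026867), 5 (33027894), 4 (33027942), 11 (33028136) and 6 (33028181) of 21 bases. With 11 mismatches, the mouse position given for 33028136 is uncertain. The window of the first site, which spans the start codon, is identical over all 21 bases, and the highest-scoring site aligns to GGGCT, which lacks the A.

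For POU3F2 (chromosome 6, 98834574 to 98839458, GRCh38, plus strand), 10 sites lay in the coding sequence, 1 in the 5′ UTR and 1 in the 3′ UTR. Windows are shown for the site with the highest score, a site conserved in full and the site outside DRACH, each with its mouse counterpart (GRCm38 chromosome 4, minus strand).
human POU3F2 98836206: cgtccagtGAACTcgagctgg
mouse Pou3F2 22486793: cgtccagtGAACTcaagcggg
human POU3F2 98836125: tcccggagGGACTctgccggg
mouse Pou3F2 22486874: tcccggagGGACTctgccggg
human POU3F2 98835742: acccaagcGGACGtggggctg
mouse Pou3F2 22487257: actcaagcAGACGtggggctg
The site at 98836206, which is the first base after the stop codon, scored 0.955, the highest of all members' sites. The site at 98836125 scored 0.755 and the non-DRACH site at 98835742 scored 0.765. Of the 12 sites 11 were at DRACH, 10 aligned to DRACH in mouse, and 5 windows were identical over 21 bases. The alignment says which bases are shared and not whether the mouse transcripts are methylated.

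**Figure D4:**
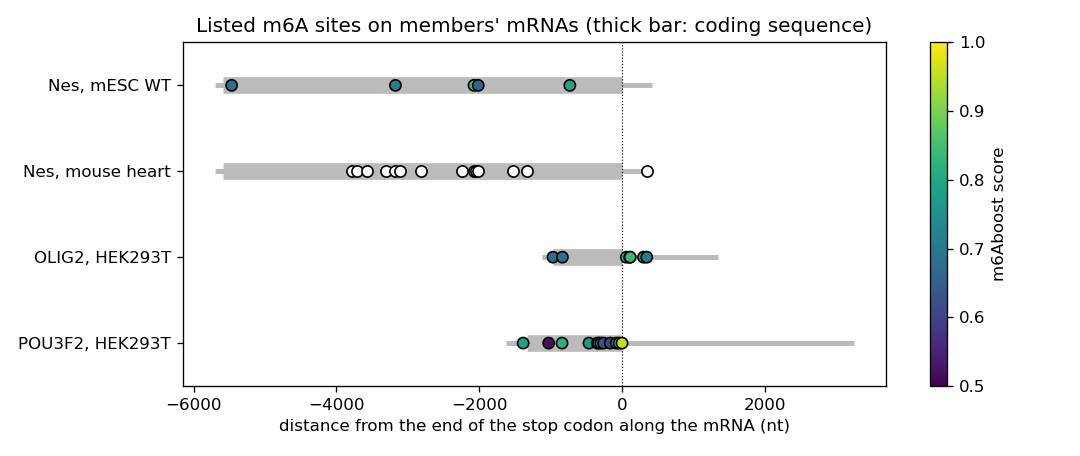
Listed m6A sites along the mRNA (x axis, nt from the end of the stop codon; thick bar, coding sequence) for Nes in WT mESCs and mouse heart and for OLIG2 and POU3F2 in HEK293T, coloured by m6Aboost score where the list gives one (white for heart). Nes sites lie in the coding sequence except 1 in heart, 5 of 7 OLIG2 sites follow the stop codon, and the POU3F2 sites crowd towards it.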

How the data were processed

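The members and the gene lists were chosen with earlier results of these data known. The authors mapped single-end reads of the 6 RNA-seq libraries to GRCm38.p6 with STAR (v2.6.1b) and deposited raw read counts per gene from htseq-count (v0.12.4, strand-specific, GENCODE M23). For multi-mapping reads 1 location was kept. Between 36.7% and 42.7% of each table's total stood in lines that name no gene and was left out. The deposited m6A lists hold positions and, for mESCs and HEK293T, the m6Aboost score, 1 per site over all replicates. The score column of the heart list has another, unstated scale and was not used.

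KO was compared with WT by edgeR's quasi-likelihood test (edgeR 4.0.16, R 4.3.3; filterByExpr, TMM) on the counts of all 6 libraries, without covariates, with Benjamini-Hochberg adjustment over 15731 genes and a threshold of 0.01. DESeq2 (1.42.0) was an alternative. The script was tested on simulated data. Same-numbered WT and KO libraries deviated together (correlations 0.122, 0.464 and 0.303), so the replicate number was also fitted as a block. The pairing rests on these correlations and on the numbers in the sample titles, with no shared day or batch stated. Positions come from GENCODE M21 and v44, to which 98.1% of gene IDs matched, so exon lengths may differ slightly from the release used for counting. RPKM used the union of exons. Human sites were placed on mouse by global alignment of the main coding transcripts.

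Named were the 9 members, Mettl3, Pou5f1, Nanog and Sox2, the called genes at both ends of each list by log2 fold change (2 at either end), genes starting within 250 kb of Olig2 with at least 10 reads in some library, and the 5 genes with a symbol nearest to Olig2 over the 6 log2 CPM values. Some list genes are counted but not reported singly here.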

Additional observations from a re-analysis of the deposited data

How the results depend on the processing

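Of 58 genes whose log2 fold change was recomputed under up to 13 alternatives, 34 kept their direction and their side of the threshold in every one, Olig1 and Pou3f2 among them wherever they were tested. Requiring at least 10 counts in every library left 0 of the members other than Olig2 called, because it removes Olig1 and Pou3f2 from the test. Without 1 library at a time 2 to 3 were called (3 without WT replicate 3, which adds Nes). Olig2 stood 66.4 to 74.1 times over the floor without 1 library at a time, and 215 times with 3 counts taken over the whole WT group. Neural list genes called lower numbered 12 (beside 43 higher) without a low-count filter, 15 (40 higher) with the replicate block and 18 (39 higher) at an adjusted p of 0.05, which called 7336 genes in all. Of all genes, 8.48%, 20.0% and 22.1% were lower and 12.1%, 23.5% and 24.6% higher under these 3 settings, in that order. Leaving out 1 library at a time called 2761 to 5412 genes, against 4669 with all 6, and the drop was over 1.5 times without WT replicate 1 (3108), KO replicate 1 (2761) or KO replicate 3 (3109). Apart from these and the calls of Mettl3 and Rest, the replicate block changed no call given here among the genes recomputed. Nkx6-2 was not among them. With library size as the only scaling, the median of all genes went from −0.02 to 0.08 and the calls from 2687 higher and 1982 lower to 2937 and 1199. It turned the signs of the log2 fold changes of Nanog (0.041), Paxbp1 (0.038) and Tcf3 (0.061), which were not called, ended the calls of Otx2 (adjusted p 0.0181), Slc32a1 (0.0117) and Pdgfrb (0.0164), and made Rest a call (0.00634). Without 1 library at a time log2 fold changes ran from −0.12 to 0.016 for Nanog, −0.039 to 0.060 for Sox2, −0.12 to 0.10 for Synj1, −0.14 to 0.053 for Tcf3 and −0.16 to 0.087 for Paxbp1. With the median score of the list as a minimum, 2 of the 5 Nes sites remained. With the longest coding transcript as the length, Pax6 came to 0.0742 RPKM in WT and 0.0598 in KO. The cause of these shifts was not tested where it is not named. Depth limits Pax6, Neurog2 and m6A sites on the members with few WT reads.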
